A study of Mus musculus with 10 samples.

Results

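Molecular chaperones and their partner proteins were followed in the blood transcriptome of metformin-treated mice. The set holds every gene of the expression table whose symbol begins with Hspa, Hspd, Hspe, Hsph, Hsp90, Dnaj, Pdia, Cct followed by a digit, or Bag followed by a digit, which gave 60 of 8904 genes, chosen by name and not by value. Of these, 35 reached a log2 value of 1 in at least 5 of the 10 libraries and were tested, and 25 did not. RNA sequencing of whole blood had been done in 5 Metformin mice and 5 Control mice to ask what the drug changes in blood. All were adult C57BL/6 mice, and the labels name no other allele. The Metformin mice received metformin, a biguanide drug used against diabetes, for 30 days, and the Control mice received PBS, the saline vehicle, for 30 days. Each library was taken as 1 mouse, although no label states that the replicates are separate animals, so p-values measure the spread between these libraries. The dose and route for these mice are not given in the labels, and blood was drawn by removal of the eyeball according to the methods.

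Chaperones bind unfolded protein chains and help them reach, keep or regain their folded shape. HSP70 proteins do this in cycles of ATP hydrolysis that are started by J-domain proteins (the Dnaj genes). The cycles are reset by nucleotide exchange factors (the HSP110 genes and some BAG genes) and followed for many clients by HSP90. The CCT ring is a closed chamber of related subunits that folds actin and tubulin, BiP (Hspa5), GRP94 (Hsp90b1) and the protein disulphide isomerases (Pdia genes) serve the endoplasmic reticulum, and mortalin (Hspa9) with the HSP60 and HSP10 chamber (Hspd1 and Hspe1) serves the mitochondrion. In red cell precursors, which make haemoglobin in bulk and then lose their organelles, HSP70 is known to protect the erythroid factor GATA1 from cleavage.

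In Metformin blood 3 chaperone genes were lower and 1 was higher. Hspa8, the constitutive cytosolic HSP70, Cct4, a subunit of the CCT ring, and Hspe1, the mitochondrial HSP10, were the lower ones. Hspa4l, a member of the HSP110 group, was the higher one, and it met the filter through the Metformin libraries. All 4 calls were lost when the 8904 genes were tested with no filter, with adjusted p-values of 0.0583 to 0.0851. For 7 of the 35 tested members all 5 Metformin values lay below all 5 Control values, and these include the endoplasmic reticulum genes Hsp90b1, Pdia6 and Dnajb11. Of these, Dnajb11 met the filter through the Control libraries, of which 5 reached the level of 1 against 1 Metformin library. The comparison used limma, which tests the difference of log2 values of each gene with Benjamini-Hochberg adjustment over 3442 tested genes at a threshold of 0.05. By that test 3 of 35 members were lower, 8.57%, against 3.11% of all tested genes, and 1 of 35 was higher, 2.86%, against 4.21% of all tested genes. Groups without overlap, Metformin below, were found in 7 of 35 members and in 5.23% of all tested genes, and Metformin above in 1 of 35 members and 5.69% of all tested genes. The members' median log2 fold change, metformin minus control, was -0.23, against 0.01 for all tested genes. On a scale centred on ribosomal protein genes the median turned positive, and of these 4 calls only those of Hspa8 and Hspa4l held.

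Some stretches of promoter are shown first, because genes of the endoplasmic reticulum group and the HSP60 and HSP10 pair carry recognisable elements upstream of their starts. They come from the RefSeq promoter windows of GRCm38.p6, 250 bases before to 50 bases after each start, in which 51 of the 60 members were matched with 69 promoters. Hspa8, Cct4, Hsp90aa1, Hsp90ab1, Hspa9, Dnajc2, Dnajc5, Dnajc11 and Dnajc30 were not matched and were not searched. The endoplasmic reticulum stress element, spelled CCAAT, 9 bases of any kind and CCACG, was searched on both strands. It was in the promoters of 4 members and in 0.119% of all 32851 promoters of that length. Capitals mark its outer letters, and the Hsp90b1 stretch holds a second copy in the opposite orientation.
Hspa5: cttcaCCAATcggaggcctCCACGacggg
Hsp90b1: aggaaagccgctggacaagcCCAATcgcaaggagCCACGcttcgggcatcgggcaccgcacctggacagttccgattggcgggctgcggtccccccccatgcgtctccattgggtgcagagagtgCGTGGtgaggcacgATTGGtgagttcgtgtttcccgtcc
Pdia6: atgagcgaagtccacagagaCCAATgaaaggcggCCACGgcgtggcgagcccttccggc
Dnajc3: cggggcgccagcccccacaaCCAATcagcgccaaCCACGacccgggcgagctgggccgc
The Hspa5 stretch is chr2:34772020-34772048 on the plus strand and begins 70 bases before the RefSeq start, inside an exon of 1 annotated transcript of the gene. The Hsp90b1 stretch is chr10:86705513-86705676 on the minus strand, the Pdia6 stretch chr12:17266471-17266529 and the Dnajc3 stretch chr14:118937807-118937865, both on the plus strand, and no annotated exon covers these 3.

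The heat-shock letters are alternating units of GAA and TTC with 2 free bases between units. A run of 3 units, GAANNTTCNNGAA or TTCNNGAANNTTC, was in 6 promoters of 4 members (Dnajb6, Hspd1, Hspe1 and Hsph1), 8.7% of the members' promoters, against 0.603% of all. Overlapping windows repeat the same letters here, since Hspd1 and Hspe1 share 285 bases of their windows, and the 6 promoters hold 3 separate sites. Capitals mark these letters in the next 2 sequences.
Hspe1: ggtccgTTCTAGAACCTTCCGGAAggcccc
Dnajb6: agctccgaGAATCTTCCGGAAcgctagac
The Hspe1 stretch is chr1:55088053-55088082 on the plus strand, between the start of Hspe1 and 1 RefSeq start of Hspd1. From these starts, 216 bases apart, the genes are transcribed away from each other. Another RefSeq start of Hspd1 lies beyond the Hspe1 start, and an exon of 1 other annotated Hspd1 transcript covers the stretch. The Dnajb6 stretch is chr5:29735844-29735872 on the plus strand, before each RefSeq start matched to the gene. Exons of an annotated Dnajb6 transcript and of the gene model Gm5129 cover it. The C/EBP-ATF element TGATGNAA, searched on both strands, was in the promoter of 1 member, Hspa14, and in 3.97% of all promoters. A match of letters is a description of the sequence, and no binding was measured here.

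Before the values, 2 Control libraries need to be set apart. In Control 1 and Control 5 the gene with the highest value was Myl2, a light chain of heart muscle myosin, while in the other 8 libraries it was Alas2, the erythroid enzyme of haem synthesis. On the log2 FPKM scale, 8 heart muscle markers averaged 0.69 to 1.07 in the Metformin libraries and 0.17 to 2.68 in Control 2, 3 and 4, but 9.995 in Control 1 and 10.2 in Control 5. The mean of 7 erythroid markers was 7.35 to 7.83 in the Metformin libraries and 6.49 to 7.36 in Control 2, 3 and 4, but 0.59 in Control 1 and 3.07 in Control 5. The mean of 8 fast skeletal muscle markers was 5.40 to 6.08 in the Metformin libraries and 0.37 to 0.97 in the Controls, and all 8 were higher in Metformin blood, as was 1 of the 7 erythroid markers. Markers of T cells averaged 0.72 to 1.58 in Metformin and 0.15 to 2.28 in Control libraries, those of neutrophils and monocytes 1.92 to 3.49 and 0.55 to 5.63, and those of platelets 0.81 to 6.56 and 0.41 to 6.95, with no marker of these lists called. The part of these tissues in the chaperone values was not tested, and in bulk blood fewer cells of a type and less RNA per cell cannot be told apart. The main results are therefore also given without Control 1 and Control 5, a fit added once the values were known. There 4 of 35 members, 11.4%, were lower, against 9.06% of all tested genes, and 1, 2.86%, was higher, against 5.81% of all tested genes. The lower ones were Hspa8, Cct4, Cct5 and Pdia3, the higher one was Hspa4l, and 3 of these 5 were also called with all 10 libraries.

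**Figure D1:**
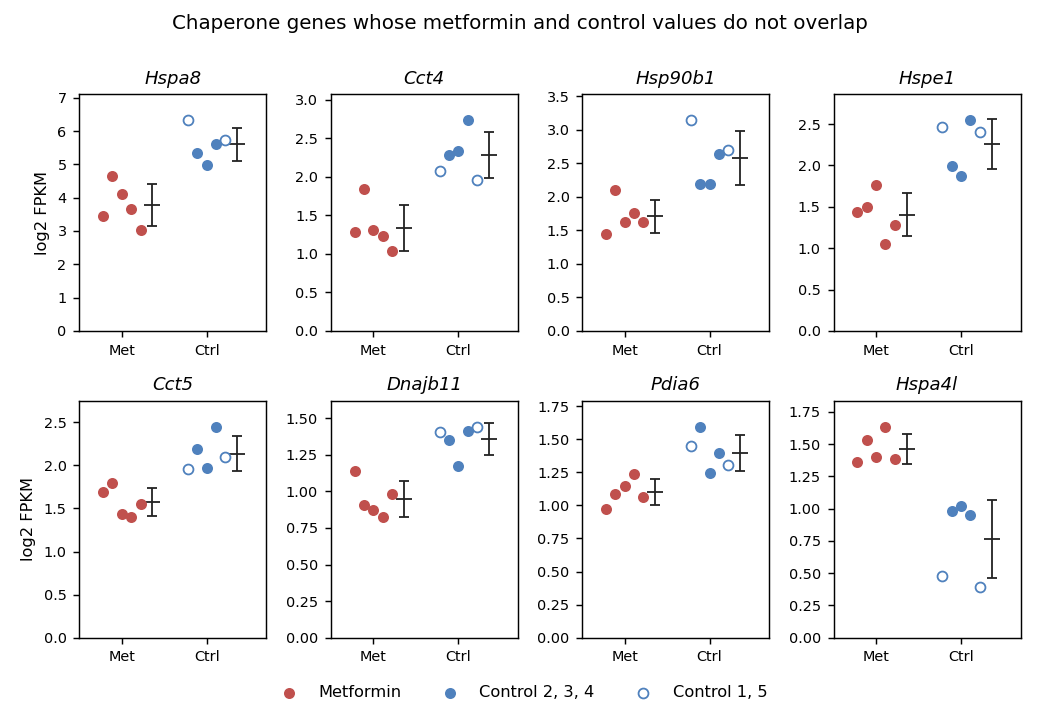
Log2 FPKM (vertical axes) of the 8 chaperone genes whose groups do not overlap, 1 panel a gene, with Metformin libraries as red points on the left and Control libraries in blue on the right. Open circles are Control 1 and Control 5, and bars are the mean and SD over 5 libraries a group. Only Hspa4l lies higher in Metformin blood, at 1.36 to 1.64 against 0.40 to 1.02 in Control blood.

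Hspa8 showed the largest fall among the tested members. The gene (ENSMUSG00000015656, chromosome 9, 40800984 to 40810087 on GRCm38) encodes HSC70, the HSP70 that folds new proteins and strips clathrin coats in unstressed cells. Its log2 FPKM was 3.44, 4.64, 4.12, 3.66 and 3.02 in Metformin 1 to 5, against 6.34, 5.34, 4.98, 5.61 and 5.73 in Control 1 to 5. The highest Metformin value stayed below the lowest Control value. The log2 fold change was -1.82 with a standard error of 0.439 (limma adjusted p = 0.0323), a Metformin level of 28.2% of the Control level if the unstated offset of the log2 values is ignored. Without Control 1 and Control 5, where the gene was highest and next to highest, it was -1.53 (adjusted p = 0.0256). The call was lost when any of Metformin 1, 3, 4 or 5 or Control 5 was left out, with adjusted p-values of 0.0691 to 0.0948, while the direction held in each of these fits.

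The other members of the cytosolic HSP70 and HSP110 group included the only higher one. Hspa4l (ENSMUSG00000025757, chromosome 3, 40744495 to 40796103), an exchange factor of HSP70, had log2 FPKM of 1.36, 1.54, 1.40, 1.64 and 1.39 in Metformin blood, against 0.48, 0.98, 1.02, 0.95 and 0.40 in Control blood. No Control value reached the lowest Metformin value, and the gene passed the filter through the Metformin libraries, since 5 of these and 1 Control library reached the level of 1. Its log2 fold change was 0.70 with a standard error of 0.157 (limma adjusted p = 0.0268), and 0.48 (adjusted p = 0.0405) without Control 1 and Control 5, while with no filter the adjusted p was 0.0583. This call too was lost when Metformin 1, 3, 4 or 5 or Control 5 was left out, with adjusted p-values of 0.0521 to 0.0760. Its close relatives gave no call. Hsph1, the main inducible HSP110, had 0.95 to 1.62 in Metformin and 0.90 to 1.49 in Control blood, with a log2 fold change of 0.09 (adjusted p = 0.719). Hspa4, also of the HSP110 group, had 0.89 to 1.36 in Metformin and 0.999 to 1.62 in Control blood, with a log2 fold change of -0.23 (adjusted p = 0.308). Hspa14, Hspa12a and Hspa12b stayed under the filter. The table's identifier for Hspa14 is annotated in GENCODE M21 as Gm45902, so that row may hold another gene model.

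Neither cytosolic HSP90 passed the test. Hsp90ab1, the constitutive form, had log2 FPKM of 4.27, 5.002, 4.29, 4.33 and 4.09 in Metformin blood, against 7.26, 4.78, 4.15, 5.47 and 6.12 in Control blood. The groups overlapped, and the highest Control values were those of Control 1 and Control 5. Metformin minus control, the log2 fold change was -1.16 with a standard error of 0.577 (limma adjusted p = 0.198), and -0.40 (adjusted p = 0.480) without these 2 libraries. Hsp90aa1, the stress-inducible form, had 3.06, 3.67, 2.77, 2.64 and 3.16 in Metformin and 4.04, 3.05, 2.69, 3.68 and 2.65 in Control blood. Here the log2 fold change was -0.16 with a standard error of 0.364 (adjusted p = 0.769). Per length, Hsp90ab1 was the more abundant in every library, by 0.93 to 1.69 log2 units in Metformin and 1.46 to 3.47 in Control blood.

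The subunits of the CCT ring, which are built into 1 complex, had fold changes of both signs. All 7 in the set passed the filter, Cct4 was lower, 5 had negative and 2 positive fold changes, and the median was -0.53, which became 0.30 with 5 positive on the ribosomal scale. Cct4 (ENSMUSG00000007739, chromosome 11, 22990519 to 23003780), the delta subunit, had log2 FPKM of 1.28, 1.84, 1.31, 1.23 and 1.04 in Metformin blood, against 2.08, 2.28, 2.34, 2.74 and 1.96 in Control blood. The groups did not overlap. In limma the log2 fold change was -0.94 with a standard error of 0.220 (limma adjusted p = 0.0290), and -1.12 (adjusted p = 0.00887) without Control 1 and Control 5. Leaving out Metformin 1, 3, 4 or 5 or Control 5 ended the call, with adjusted p-values of 0.0539 to 0.0887. Cct5, the epsilon subunit, had 1.69, 1.80, 1.44, 1.40 and 1.55 in Metformin and 1.96, 2.20, 1.97, 2.45 and 2.09 in Control blood, again without overlap. Its log2 fold change was -0.56 (adjusted p = 0.0888) with all libraries and -0.63 (adjusted p = 0.0498) without Control 1 and Control 5, so its call depends on these libraries.

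Cct2 and Cct3 had negative values that missed the threshold. Cct2 had a log2 fold change of -0.45 (limma adjusted p = 0.130) and -0.56 without Control 1 and Control 5 (adjusted p = 0.0501). Cct3 had -0.95 (adjusted p = 0.0952) and -0.52 without these libraries (adjusted p = 0.206), and passed when Control 3 alone was left out, at -1.18 (adjusted p = 0.0326). Cct6a had -0.53, and its highest value by far, 3.47, was that of Control 1. The 2 most abundant subunits, Cct7 and Cct8, had positive fold changes with all 10 libraries and did not pass. Cct7 had log2 FPKM of 3.66, 3.86, 3.57, 3.32 and 3.59 in Metformin blood, against 2.34, 3.96, 2.77, 4.05 and 2.72 in Control blood. Here the log2 fold change was 0.43 (adjusted p = 0.445), and 0.01 without Control 1 and Control 5. Cct8 had 2.55 to 3.16 in Metformin and 1.79 to 3.19 in Control blood, with 0.38 (adjusted p = 0.435) and -0.03 without these libraries. Per length, Cct7 exceeded Cct4 by 2.02 to 2.56 log2 units in Metformin blood and by 0.26 to 1.68 in Control blood. Tcp1, the alpha subunit, which the naming rule does not catch, lay without overlap at 0.92 to 1.67 in Metformin and 1.86 to 2.22 in Control blood, with a log2 fold change of -0.60 (adjusted p = 0.0848).

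**Figure D2:**
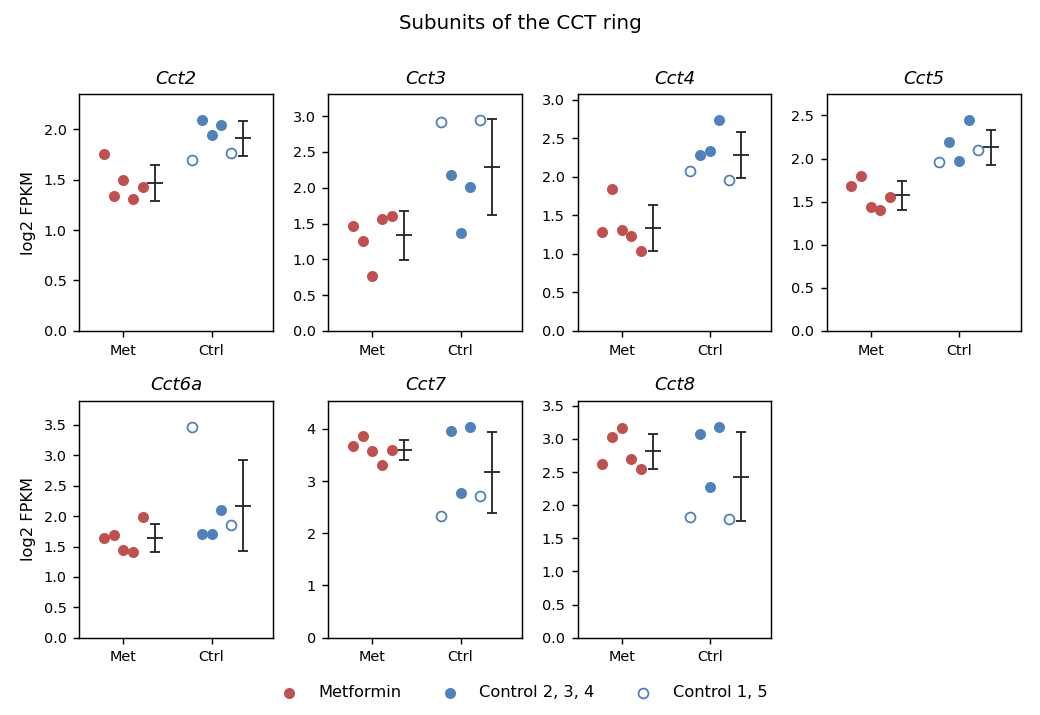
Log2 FPKM (vertical axes, from 0) of the 7 CCT ring subunits in the set, with Metformin libraries on the left and Control libraries on the right of each panel. Open circles are Control 1 and Control 5, and bars are the mean and SD over 5 libraries. Cct4 and Cct5 separate the groups, whereas in Cct7 and Cct8 the open circles are the lowest Control values.

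All 5 tested endoplasmic reticulum members, the disulphide isomerases included, had negative fold changes, of which 4 turned positive on the ribosomal scale, and none passed the test with all 10 libraries. Hspa5 (BiP), the HSP70 of that compartment, had log2 FPKM of 1.85, 2.49, 2.09, 1.94 and 1.88 in Metformin blood, against 2.65, 2.93, 2.35, 3.21 and 2.65 in Control blood. Only Metformin 2 reached into the Control range. The log2 fold change was -0.71 (limma adjusted p = 0.104), and -0.78 (adjusted p = 0.0736) without Control 1 and Control 5. Hsp90b1 (GRP94), its HSP90, had 1.44, 2.10, 1.62, 1.76 and 1.62 in Metformin and 3.15, 2.20, 2.19, 2.64 and 2.70 in Control blood. These groups did not overlap, with a log2 fold change of -0.87 (adjusted p = 0.0582), and -0.63 (adjusted p = 0.0746) without Control 1 and Control 5. The gene passed without Control 3 (adjusted p = 0.0370). Dnajb11, the J-domain partner of BiP, had 0.83 to 1.14 in Metformin and 1.18 to 1.44 in Control blood, without overlap. Its log2 fold change was -0.41 (adjusted p = 0.0595), it passed without Control 3 (adjusted p = 0.0412), and it met the filter through the Control libraries, of which 5 reached the level of 1 against 1 Metformin library.

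Both tested disulphide isomerases were among these. Pdia3 (ERp57), which forms disulphide bonds in glycoproteins together with calnexin and calreticulin, had log2 FPKM of 1.10, 1.99, 1.33, 1.38 and 0.84 in Metformin blood, against 1.66, 2.34, 2.28, 2.69 and 1.68 in Control blood. Its groups overlapped through Metformin 2. Between the groups the log2 fold change was -0.80 (limma adjusted p = 0.1003), and -1.11 with a standard error of 0.258 (adjusted p = 0.0186) without Control 1 and Control 5. Pdia6, an isomerase that acts with BiP, had 0.97 to 1.24 in Metformin and 1.25 to 1.60 in Control blood, without overlap, with -0.30 (adjusted p = 0.159) and -0.31 (adjusted p = 0.175). Of the 4 members with the stress element in their promoters, Hspa5, Hsp90b1 and Pdia6 were tested and none passed, while Dnajc3, an inhibitor of the stress kinase PERK, stayed under the filter at 0.48 to 0.62 in Metformin and 0.44 to 0.71 in Control blood. The other 6 J-domain genes of the endoplasmic reticulum and Pdia4 also stayed under it. The mean of 5 B cell markers, whose plasma cell descendants are rich in endoplasmic reticulum, was 1.37 to 2.88 in the Metformin libraries, 3.64 to 4.65 in Control 2, 3 and 4, 0.52 in Control 1 and 3.33 in Control 5. None of these markers passed the test, and their part in the endoplasmic reticulum values was not tested.

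The cytosolic and nuclear J-domain genes held the highest positive values of the set, none of which passed the test. Of 17 genes 10 were tested, 8 had positive fold changes, and the median of the 10 was 0.25, against 0.11 without Control 1 and Control 5. Among the 8, Dnajb4 and Dnajb5 met the filter through the Metformin libraries. On the ribosomal scale the median of the 10 was 1.08, against 0.84 over all tested genes, and 9 were positive. There the 8 with positive fold changes as deposited passed, beside 55.0% of all tested genes called higher. Dnajb6, which keeps polyglutamine proteins from aggregating, had log2 FPKM of 4.97, 5.58, 4.80, 4.72 and 4.64 in Metformin blood, against 1.62, 4.49, 3.24, 4.98 and 1.62 in Control blood. The 2 lowest Control values are those of Control 1 and Control 5. Metformin minus control, the log2 fold change was 1.75 with a standard error of 0.673 (limma adjusted p = 0.130), and 0.71 (adjusted p = 0.290) without Control 1 and Control 5. With Control 4 alone left out it passed, at 2.20 (adjusted p = 0.0495). Dnajb2, a ubiquitin-binding J-domain protein, showed the same layout, with 4.43, 4.89, 4.16, 4.22 and 4.67 in Metformin and 1.58, 5.01, 3.29, 4.75 and 1.76 in Control blood. Here the log2 fold change was 1.20 (adjusted p = 0.240) and 0.13 without these libraries. Dnaja4 had 3.43 to 4.41 in Metformin and 1.11 to 4.22 in Control blood, with 1.34 (adjusted p = 0.154) and 0.50 without Control 1 and Control 5, and passed without Control 4 (adjusted p = 0.0432).

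Dnajc7, an adaptor that binds both HSP70 and HSP90, had the most negative fold change of this family. It had log2 FPKM of 2.54, 1.93, 1.74, 1.81 and 1.66 in Metformin blood, against 3.72, 2.62, 2.44, 3.50 and 3.10 in Control blood. Only Metformin 1 reached into the Control range. The log2 fold change was -1.14 with a standard error of 0.313 (limma adjusted p = 0.0514), and -0.92 (adjusted p = 0.0707) without Control 1 and Control 5. It passed when Control 2 or Control 3 was left out (adjusted p = 0.0477 and 0.0327). Dnajb4, a partner of inducible HSP70, had 0.91 to 1.85 in Metformin and 0.65 to 1.23 in Control blood, with 0.60 (adjusted p = 0.0834). The gene met the filter through the Metformin libraries, of which 4 reached the level of 1 against 1 Control library. It passed when Metformin 2 or Control 3 was left out (adjusted p = 0.0393 and 0.0459). Dnajb1, the classic J-domain partner of stress-induced HSP70, stayed under the filter at 0.78 to 0.98 in Metformin and 0.52 to 1.39 in Control blood.

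**Figure D3:**
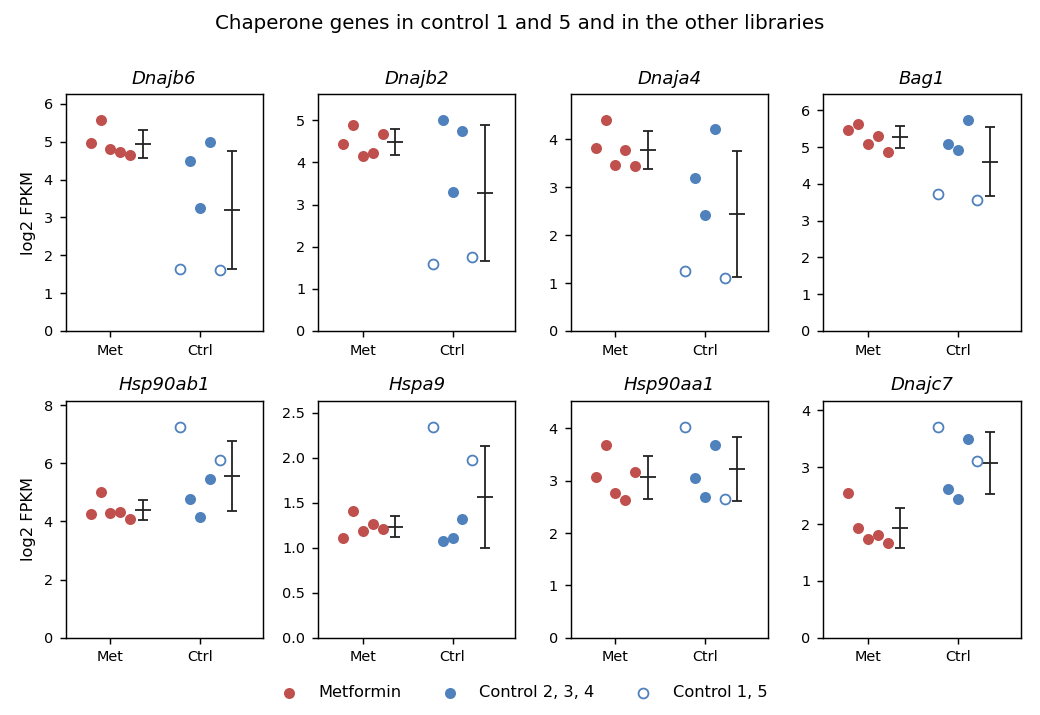
Log2 FPKM (vertical axes) of 8 tested chaperone genes, with Control 1 and Control 5 as open circles and Control 2, 3 and 4 in filled blue. Metformin libraries are in red on the left, and bars are the mean and SD over 5 libraries. In Dnajb6, Dnajb2, Dnaja4 and Bag1 the open circles average lower than the other Controls by more than 1, and in Hsp90ab1 higher by more than 1. In Hspa9, Dnajc7 and Hsp90aa1 they average higher by 0.999, 0.56 and 0.20.

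Among the mitochondrial members the HSP10 gene was lower and its ring partner missed the test. Hspe1 (ENSMUSG00000073676, chromosome 1, 55088132 to 55091307) had log2 FPKM of 1.43, 1.49, 1.77, 1.05 and 1.29 in Metformin blood, against 2.47, 1.99, 1.88, 2.55 and 2.40 in Control blood. The groups did not overlap. This gave a log2 fold change of -0.85 with a standard error of 0.215 (limma adjusted p = 0.0384), and -0.73 (adjusted p = 0.0547) without Control 1 and Control 5, so the call ends there. It also ended when any Metformin library or Control 4 or Control 5 was left out, with adjusted p-values of 0.0534 to 0.106. Hspd1 (HSP60), transcribed from the same stretch in the other direction, had 0.97, 1.64, 1.21, 1.04 and 0.95 in Metformin and 1.70, 1.26, 1.11, 1.68 and 1.58 in Control blood. These groups overlapped, with a log2 fold change of -0.30 (adjusted p = 0.275), which turned to 0.53 and passed on the ribosomal scale (adjusted p = 0.0307). The annotation names 6 pseudogenes of Hspe1 and 5 of Hspd1, and reads shared with such copies could be assigned to either.

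None of the other mitochondrial members passed the test on the deposited scale. Hspa9 (mortalin), which pulls proteins into the matrix, had 1.11 to 1.41 in Metformin and 1.07 to 2.35 in Control blood, with a log2 fold change of -0.33 (limma adjusted p = 0.366) and 0.07 without Control 1 and Control 5, which held its 2 highest values. Dnajc11 had 0.76 to 1.13 in Metformin and 0.90 to 1.51 in Control blood, with -0.27 (adjusted p = 0.226). Dnajc15 had -0.21 and 0.030 without Control 1 and Control 5, and Dnaja3, Dnajc4, Dnajc19 and Dnajc30 were under the filter.

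The 2 tested BAG genes, of a family that includes exchange factors of HSP70, gave no call. Bag1, a partner of the survival protein BCL2, was the most abundant of the family, with log2 FPKM of 5.46, 5.62, 5.09, 5.29 and 4.87 in Metformin blood, against 3.73, 5.08, 4.91, 5.74 and 3.55 in Control blood. The low Control values are again Control 1 and Control 5. Its log2 fold change was 0.66 (limma adjusted p = 0.354), and 0.02 without these libraries. Bag6, which guards tail-anchored proteins on their way to membranes, had 2.27 to 2.91 in Metformin and 2.06 to 3.35 in Control blood, with -0.19 (adjusted p = 0.680). Bag2, Bag3 and Bag5 stayed under the filter. The 2 highest values of Bag3, a chaperone adaptor of muscle, were 1.45 and 1.48 in Control 1 and Control 5. Its Metformin values, 0.70 to 1.27, lay above those of Control 2, 3 and 4, 0.21 to 0.56.

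**Figure D4:**
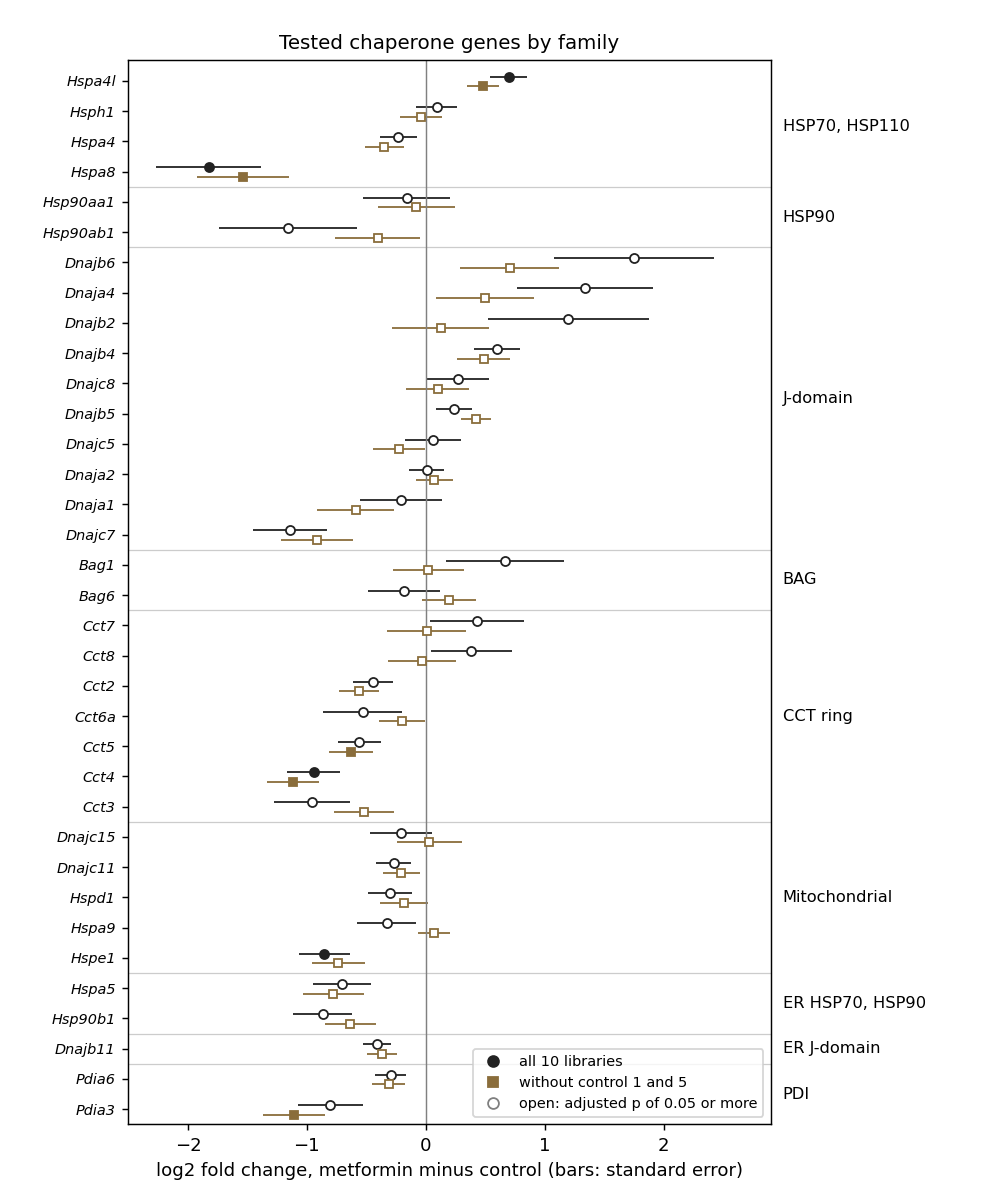
Log2 fold change, metformin minus control, with its standard error (horizontal axis) for the 35 tested chaperone genes by family, from limma with all 10 libraries (circles) and without Control 1 and Control 5 (squares), where filled marks have an adjusted p under 0.05. Hspa8 lies farthest to the left at -1.82 and Dnajb6 farthest to the right at 1.75, and the circle and square of Dnajb6 lie far apart.

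The 25 members under the filter had means of 0.29 to 1.004 over the 10 libraries and no value above 1.69. Without the filter, 60 members and 8904 genes were tested and no member passed, with a smallest adjusted p of 0.0583, while an unadjusted p under 0.05 was reached by 4 members with positive and 13 with negative fold changes, beside 890 and 880 of all 8904 genes. With the filter these were 4 and 12 of 35, 11.4% and 34.3%, against 16.2% and 12.6% of all tested genes.

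Genes around the chaperones gave 1 call with all 10 libraries. It was Atf4, the transcription factor of the integrated stress response, on a list of 5 sensors and factors of the unfolded protein response of which 3 were tested. Its log2 FPKM was 3.90, 3.64, 3.66, 3.25 and 4.04 in Metformin blood, against 1.74, 2.18, 2.64, 2.04 and 1.76 in Control blood. No Metformin value came down to the highest Control value. Between the groups the log2 fold change was 1.63 with a standard error of 0.283 (limma adjusted p = 0.0101), and 1.41 (adjusted p = 0.00820) without Control 1 and Control 5. The 16 heat-shock factors and HSP70 or HSP90 helpers (11 tested), the 6 prefoldin subunits (5 tested), the 18 other folding genes of the endoplasmic reticulum (10 tested) and the 10 mitochondrial folding and protease genes (5 tested) gave none. At an unadjusted p under 0.05 they held 1, 0, 0 and 1 higher and 3, 1, 3 and 0 lower genes in that order, beside 16.2% higher and 12.6% lower among all tested genes. Erp29, a folding factor of the secretory pathway, was lower without Control 1 and Control 5, at -0.74 (limma adjusted p = 0.0376), but not with them, at -0.60 (adjusted p = 0.120). It was 1 of 10 tested genes of its list, and without these libraries 9.06% of all tested genes were lower.

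The direction of many members depends on the scale, with positive fold changes in 13 of 35 as deposited and in 28 of 35 on the ribosomal scale. When each library was centred on the mean of 75 ribosomal protein genes, which was 4.75 to 5.40 in Metformin and 5.55 to 6.13 in Control blood, the median over all tested genes moved by 0.83 to 0.84 and that over the members to 0.60. On that scale 17 members were higher and 1, Hspa8, was lower, 48.6% higher against 55.0% of all tested genes. The members' median lay 0.24 below that of all tested genes as deposited, and 0.27 below it without Control 1 and Control 5. The ribosomal scale keeps this gap by construction, since centring shifts all genes of a library alike. Hspa8 at -0.996 (limma adjusted p = 0.0483) and Hspa4l kept their direction and call on the ribosomal scale, while Cct4 at -0.11 and Hspe1 at -0.02 did not pass.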

How the data were processed

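Blood RNA of 5 Metformin and 5 Control mice was sequenced from Nextera XT libraries. The authors aligned reads with TopHat (v2.0.9, Bowtie v2.0.6) to GRCm38 and computed expression with Cufflinks, according to the methods and the submitters' processing notes. The deposited values are log2 FPKM per gene, with an offset that is not stated. Sorted values of the libraries nearly coincide (largest SD 0.0399), as after quantile normalization, which the sources do not mention. Depth is unknown, so no counting intervals are given.

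The filter, a log2 FPKM of 1 or more in 5 libraries or more, left 3442 of 8904 genes, which were compared with limma 3.58.1 in R 4.3.3 (lmFit, eBayes with trend), with Benjamini-Hochberg adjustment and a threshold of 0.05. The methods name no test for the blood genes. Members, families, pathway and marker lists were chosen with earlier results of these data known, and a list is described by counts and its median. Members are named if called with or without Control 1 and Control 5, or if groups did not overlap. They are also named if among the 2 most abundant or the 2 with the smallest p of their family. Neighbouring genes are named if called. Tcp1, Cct2, Cct3, Cct6a, Dnaja4, Dnajb1, Dnajb5, Dnajc15, Hspa4, Hspd1, Bag3, Pdia4 and Dnajc3 were added after their values were seen. All 60 identifiers matched GENCODE M21, which gave positions. Promoters are those of RefSeq (GRCm38.p6). Alternatives were another offset, filters, centring, a replicate block, fits without trend or robust, and leaving out libraries.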

Additional observations from a re-analysis of the deposited data

Results flagged for a closer look

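Hsp90ab1 in Metformin 2, at a log2 FPKM of 5.002, stood far from the other Metformin libraries, which lay between 4.09 and 4.33. It was 1 of 46 groups of 5 libraries checked over the 23 named members, and chance alone sets apart about 1 group in 20.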

How the results depend on the processing

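The counts of members called, 1 higher and 3 lower, were the same with another offset and with the robust fit. They were 0 and 0 without the filter, 0 and 2 with the stricter filter (14 members tested), 1 and 5 with median centring, 17 and 1 with ribosomal centring, 1 and 5 without the trend, and 1 and 4 without Control 1 and Control 5. Leaving out 1 library gave 0 to 3 higher and 0 to 7 lower members. With the replicate block 0 members were higher and 0 lower (smallest adjusted p = 0.0934 in limma). At the same adjusted threshold 29 of all tested genes were higher and 1 was lower. No label says whether the numbers pair the mice. Correlations of same-numbered libraries ran from -0.25 to 0.13, and 1 of 5 numbers matched itself best. These cannot settle whether the mice were paired, because Control 1 and Control 5 differ so much from the other Controls. Over all tested genes, 145 were higher and 107 lower in the fit reported, 60 and 13 without the filter, 52 and 64 with the stricter filter, 1894 and 17 with ribosomal centring, 200 and 312 without Control 1 and Control 5, and 43 to 296 and 8 to 237 with 1 library left out. They were 129 and 158 with median centring, 129 and 134 without the trend, 100 and 96 with another offset, and 141 and 104 with the robust fit. Lower genes made up 4.59% of all tested genes with median centring and 3.89% without the trend, against 14.3% of members in each. The cause of the moves in these counts was not tested, and some of these fits use fewer libraries or genes.

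With ribosomal centring 15 of 35 tested members changed sign: Bag6 to 0.64, Cct5 to 0.27, Pdia3 to 0.027, Pdia6 to 0.53, Hsp90aa1 to 0.67, Hspa5 to 0.12, Dnajb11 to 0.42, Hspa9 to 0.50, Dnajc11 to 0.56, Cct2 to 0.38, Cct6a to 0.30, Dnaja1 to 0.62, Dnajc15 to 0.62, Hspa4 to 0.60 and Hspd1 to 0.53. Without Control 1 and Control 5, 6 of 35 did: Bag6 to 0.19, Cct8 to -0.033, Hsph1 to -0.040, Hspa9 to 0.070, Dnajc15 to 0.030 and Dnajc5 to -0.22. With 1 library left out Hsp90aa1 was the only one of the 23 named members to change sign. It ran from -0.31 to 0.043, the last without Control 1. Other members changed sign too: the positive cytosolic and nuclear J-domain genes went from 8 to 6 without Metformin 2. They went to 7 without Metformin 3, Control 1, Control 3 or Control 5. Low values limit what can be seen, since 25 of 60 members stayed under the filter, and the depth behind the values is unknown.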
